A study of Mus musculus with 22 samples.

Results

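Interferon-stimulated genes are the genes whose transcription rises when a cell senses interferon. A list of 33 of their symbols was followed here in mouse liver, chosen with earlier results of these data known. All 33 symbols were found among the 23227 genes of the mRNA counts and among the 23167 gene promoters of the counts of H3K27ac, histone H3 acetylated at lysine 27, a mark of active promoters and enhancers. The livers came from wild type C57BL/6J mice that ate standard chow up to 24 weeks of age or a high-fat diet for the last 16 weeks, from the age of 8 weeks. All mice were killed at 24 weeks after an overnight fast, so both diets share the fast, and livers were frozen and pulverized whole. Each diet had 3 mRNA libraries and 3 H3K27ac libraries of the 22 samples in the series. The labels do not say whether the 3 libraries of a diet came from separate mice, so p-values measure the spread between libraries, which may be partly technical. The comparison asks how much these genes rose on the high-fat diet and whether the acetylation of their promoters changed by as much.

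Type I and type III interferons bind receptors at the cell surface that activate the Janus kinases, which phosphorylate STAT proteins, STAT2 among them. STAT2 and IRF9 are subunits of the complex ISGF3, which enters the nucleus and binds a repeated GAAA element in the promoters of its target genes. Interferon gamma acts largely through another element, a TTC and a GAA with a spacer between them. The products include sensors of viral RNA, factors that amplify the response, the ubiquitin-like protein ISG15 and a range of antiviral effectors. In the liver they are known from viral hepatitis, and hepatocytes as well as resident macrophages can express them.

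The promoter sequences close to the start site were searched for exact letter patterns of these elements. RefSeq windows on GRCm38.p6, of 250 bases before and 50 after the start, were found for 24 of the 33 symbols. No window was matched for Oas2, Usp18, Mx1, Mx2, Zbp1, Dhx58, Parp14, Parp9 and Rtp4. The letters GAAANNGAAA were searched on both strands, allowing overlapping matches. They occurred in windows of 12 of the 24 symbols (50%), against 3.99% of 27025 gene symbols with such a window. The letters TTCNNNGAA, which read the same on both strands, occurred in 5 (20.8%), against 9.55% of all symbols. The 250 bases before the start are printed for 6 genes, 5′ to 3′ on the strand of the gene, with every match to GAAANNGAAA or its reverse complement TTTCNNTTTC in capitals. They were chosen after their values were seen: Isg15 and Ifit1 rose most among members with a match, Oas3 had the largest rise in promoter acetylation, Ddx60 has its matches nearest to the start among those printed, and Ifi44, a raised member, and Trim25, the member that fell, have no match.
Isg15 (chr4:156200819-156201068, minus strand): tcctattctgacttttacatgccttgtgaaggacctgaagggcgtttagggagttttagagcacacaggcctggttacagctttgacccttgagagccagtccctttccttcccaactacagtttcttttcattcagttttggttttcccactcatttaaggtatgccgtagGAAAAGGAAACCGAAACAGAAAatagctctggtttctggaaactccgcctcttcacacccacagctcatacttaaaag
Ifit1 (chr19:34640639-34640888, plus strand): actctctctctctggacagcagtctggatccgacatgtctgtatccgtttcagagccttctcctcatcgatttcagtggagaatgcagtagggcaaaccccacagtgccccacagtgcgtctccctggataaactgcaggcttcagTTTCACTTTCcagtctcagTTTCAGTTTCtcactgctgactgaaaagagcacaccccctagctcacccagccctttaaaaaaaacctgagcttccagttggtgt
Oas3 (chr5:120777660-120777909, minus strand): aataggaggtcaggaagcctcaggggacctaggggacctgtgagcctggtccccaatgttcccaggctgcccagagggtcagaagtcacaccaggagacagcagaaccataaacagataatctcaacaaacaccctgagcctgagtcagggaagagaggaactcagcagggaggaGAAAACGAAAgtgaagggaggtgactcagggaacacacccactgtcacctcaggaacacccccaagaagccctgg
Ddx60 (chr8:61927837-61928086, plus strand): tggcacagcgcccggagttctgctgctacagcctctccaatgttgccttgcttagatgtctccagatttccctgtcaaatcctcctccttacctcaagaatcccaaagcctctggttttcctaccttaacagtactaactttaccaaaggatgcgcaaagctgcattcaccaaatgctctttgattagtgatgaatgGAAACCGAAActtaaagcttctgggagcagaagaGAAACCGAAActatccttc
Ifi44 (chr3:151749911-151750160, minus strand): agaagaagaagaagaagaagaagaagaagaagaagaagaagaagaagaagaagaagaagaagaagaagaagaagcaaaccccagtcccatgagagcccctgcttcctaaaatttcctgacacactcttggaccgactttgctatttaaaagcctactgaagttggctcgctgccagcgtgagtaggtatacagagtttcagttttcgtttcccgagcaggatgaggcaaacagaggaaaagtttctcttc
Trim25 (chr11:88999153-88999402, plus strand): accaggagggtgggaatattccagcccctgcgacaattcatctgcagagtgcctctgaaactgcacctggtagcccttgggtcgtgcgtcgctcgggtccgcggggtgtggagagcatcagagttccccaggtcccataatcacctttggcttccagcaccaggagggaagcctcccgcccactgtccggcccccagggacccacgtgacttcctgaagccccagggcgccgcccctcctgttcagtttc
In Isg15, 3 matches overlap in 1 run of GAAA repeats, while Ifit1 has 2 separate matches on the opposite strand. The median mRNA log2 fold change, high-fat diet over chow, was 1.31 over the 12 members with a match and 1.02 over the 12 with a window and no match. These counts describe letters in a window and show no binding. Variants of the letters were not searched, so a window without a match need not lack the element. Of the 12 members with a match, 10 rose at the mRNA level, as did 11 of the 12 without one.

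Total counts ran from 19016275 to 45741794 over the mRNA libraries and from 1967613 to 4964403 over the H3K27ac libraries at promoters. High-fat replicate 1 is the library with the fewest promoter counts. Hepatocyte markers took 108176 to 115932 CPM (counts per 1e+06 counts, scaled for library composition) in chow and 105510 to 132929 in high-fat livers. Genes of the exocrine pancreas were also present, at 417 to 2490 CPM summed over 28 genes in chow livers and 11.3 to 243 in high-fat livers, and 21 of the 23 tested fell. Resident and recruited macrophage markers summed to 291 to 537 CPM in chow and 349 to 646 in high-fat livers. In whole liver, a change in the number of cells of a type and a change in RNA per cell cannot be told apart.

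At the mRNA level, 29 of the 33 members rose on the high-fat diet, 1 fell and 3 did not pass the test (edgeR quasi-likelihood F test, Benjamini-Hochberg adjusted over 12909 genes, threshold 0.05). Over all genes tested, 18% rose and 17.6% fell. A rise of at least 2-fold was seen for 21 members, against 4.82% of all genes. The largest rises were those of Isg15, Zbp1, Ifit1, Ifi44 and Ifit3, all at least 4-fold, and the only fall was that of Trim25. In 31 members the 3 high-fat libraries all lay above the 3 chow libraries, an ordering seen in 25.1% of all genes, and in 1 all lay below (25.5% of all genes). Members had a median log2 fold change of 1.28, and all genes of 0.02. All 33 members passed the filter on low counts.

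**Figure D1:**
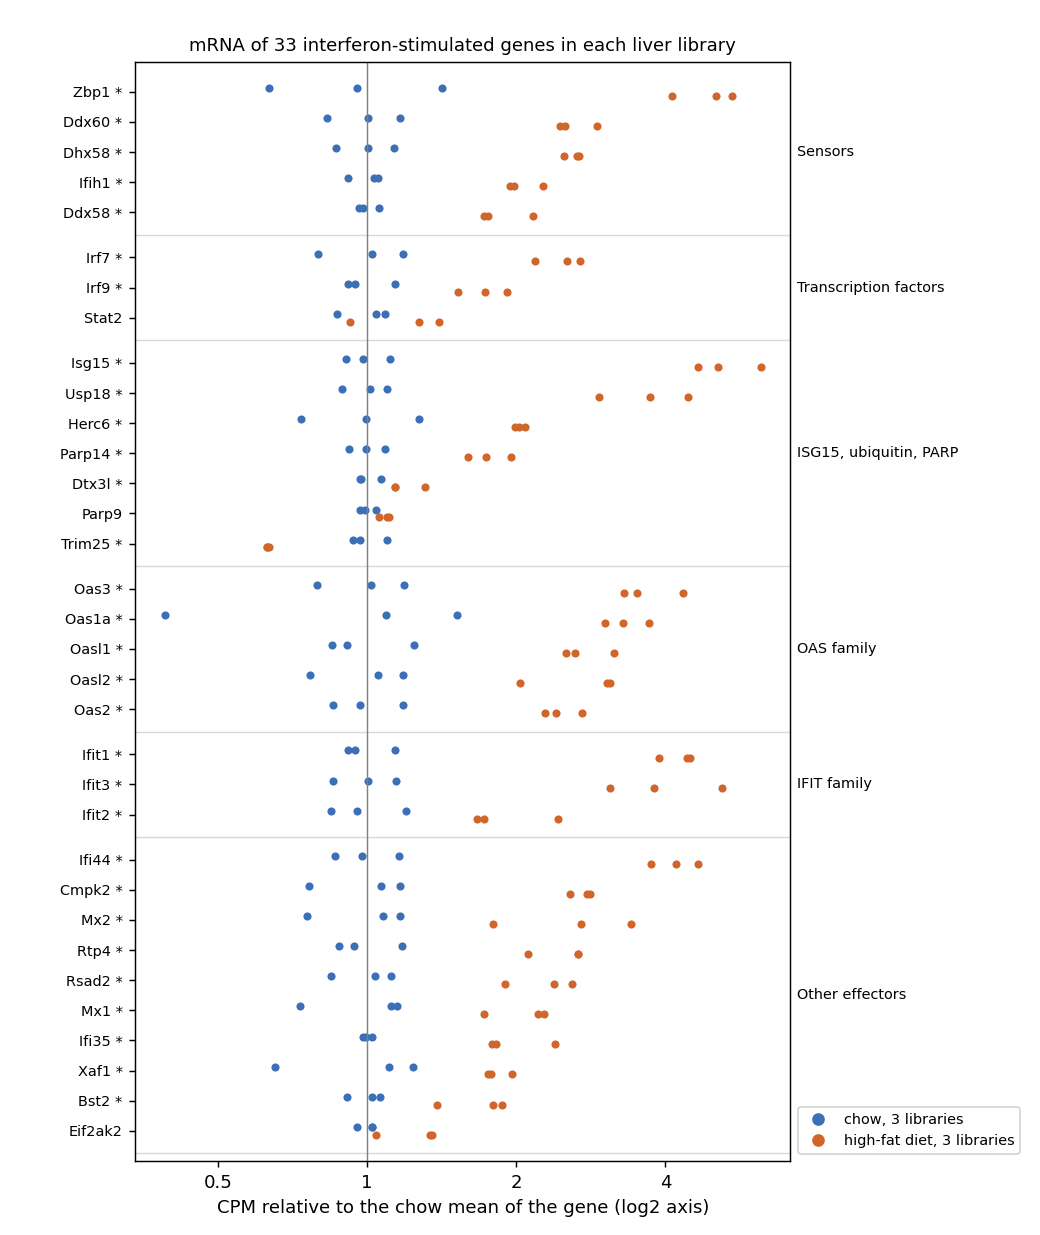
Scaled mRNA level (CPM) of each gene in each library, divided by the chow mean of the gene, on a log2 axis, with blue points for the 3 chow and orange points for the 3 high-fat libraries, grouped by role. An asterisk marks genes with an adjusted p under 0.05; the orange points lie to the right of the blue ones for 31 genes, to the left for Trim25, and mixed for Stat2.

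All 5 sensors of nucleic acid rose. Zbp1, which binds Z-form nucleic acid and can start cell death, stood at 2.10, 1.39 and 3.12 CPM in chow replicates 1 to 3 and at 11.1, 12.0 and 9.09 CPM in high-fat replicates 1 to 3. That is a 4.90-fold rise (log2 fold change 2.29 ± 0.25 (SE), adjusted p = 0.000433), and the lowest high-fat library stood well above the highest chow library. The helicase gene Ddx60 rose from 2.77 ± 0.46 to 7.27 ± 0.68 CPM (SD, n = 3 per diet; log2 1.41 ± 0.17 (SE), adjusted p = 0.000634). Dhx58, which encodes LGP2, a regulator of the RNA sensors, rose from 6.33 ± 0.84 to 16.5 ± 0.63 CPM (log2 1.37 ± 0.12, adjusted p = 0.000197). The RNA sensors themselves had smaller fold changes, a difference from Zbp1 that was not tested. Ifih1, encoding MDA5, which detects long double-stranded RNA, rose from 21.1 ± 1.57 to 43.6 ± 3.76 CPM (log2 1.04 ± 0.10, adjusted p = 0.000219). Ddx58, encoding RIG-I, which detects RNA with free triphosphate ends, rose 1.87-fold (log2 0.91 ± 0.11, adjusted p = 0.000634).

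Among the transcription factors, Irf7, which drives the late wave of interferon transcription, had 16.2, 12.6 and 18.6 CPM in chow and 42.4, 39.9 and 34.4 CPM in high-fat livers. All high-fat libraries stood above chow, and the rise was 2.46-fold (log2 1.30 ± 0.15, adjusted p = 0.000492). Of the ISGF3 subunits, Irf9 rose 1.72-fold (log2 0.78 ± 0.12, adjusted p = 0.00181). Stat2 had 63.2, 65.7 and 52.6 CPM in chow and 84.5, 77.2 and 55.9 CPM in high-fat livers and did not pass (log2 0.26, 95% interval -0.09 to 0.61, adjusted p = 0.221). High-fat replicate 3 lay within the chow range for Stat2, which passed without that library (adjusted p = 0.0206), and the difference between Irf9 and Stat2 was not tested.

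In the group of ISG15 and the ubiquitin and ADP-ribose enzymes, 5 of 7 members rose, 1 fell and 1 did not pass. Isg15, the ubiquitin-like modifier itself, had the largest rise of all members. It stood at 2.33, 2.63 and 2.15 CPM in chow and at 14.7, 12.1 and 11 CPM in high-fat livers, a 5.32-fold rise (log2 2.41 ± 0.16, adjusted p = 7.07e-05). Within each diet its libraries lay close together. Usp18, the protease that removes ISG15 and damps signalling at the interferon receptor, rose from 5.08 ± 0.53 to 18.8 ± 3.83 CPM (log2 1.87 ± 0.17, adjusted p = 0.000206). Herc6, the ligase that attaches ISG15 in mice, rose from 9.01 ± 2.42 to 18.3 ± 0.45 CPM (log2 1.04 ± 0.18, adjusted p = 0.00322).

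Trim25, a ubiquitin ligase that acts on RIG-I, moved the other way. Its level was 178, 202 and 173 CPM in chow and 116, 116 and 117 CPM in high-fat livers, a fall to 0.63 of the chow level (log2 -0.67 ± 0.08, adjusted p = 0.000672). All 3 high-fat libraries were below all 3 chow libraries. The 3 members of the PARP group, whose products modify proteins with ADP-ribose or act beside such enzymes, had the smallest log2 fold changes above 0 in this group. Parp14 rose 1.77-fold (log2 0.82 ± 0.10, adjusted p = 0.000789). Dtx3l, the ligase partner of PARP9, had a log2 fold change of 0.26 ± 0.09 that passed narrowly (adjusted p = 0.0469) and lost its call under 10 of 13 alternatives. Parp9 did not pass (log2 0.12, 95% interval -0.04 to 0.28, adjusted p = 0.216).

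The 5 genes of the oligoadenylate synthetase family, whose enzymes make the messenger that activates RNase L, all rose more than 2-fold. Oas3 stood at 1.13, 0.75 and 0.97 CPM in chow and at 3.13, 3.33 and 4.12 CPM in high-fat livers (log2 1.85 ± 0.22, adjusted p = 0.000674). Oas1a was the most variable of them in chow, with 1.20, 0.43 and 1.67 CPM, against 3.31, 3.61 and 4.07 CPM in high-fat livers (log2 1.72 ± 0.35, adjusted p = 0.00660). Even so, no high-fat library of Oas1a fell within the chow range. Oas2 rose from 2.39 ± 0.40 to 5.90 ± 0.53 CPM (log2 1.28 ± 0.17, adjusted p = 0.00104). Oasl1, an inactive relative that restrains the translation of IRF7, rose from 5.13 ± 1.08 to 14.2 ± 1.73 CPM (log2 1.44 ± 0.17, adjusted p = 0.000594). Oasl2 rose from 2.45 ± 0.52 to 6.68 ± 1.46 CPM (log2 1.44 ± 0.22, adjusted p = 0.00201). Counts of close relatives such as Oas1a and other Oas1 copies, or Ifit1 and Ifit3 and their copies, can be split between genes by the counting, and their levels are uncertain to that extent.

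All 3 members of the IFIT family, whose proteins bind foreign RNA, rose. Ifit1 had 4.22, 5.10 and 4.09 CPM in chow and 20.1, 17.3 and 19.7 CPM in high-fat livers, a 4.28-fold rise (log2 2.10 ± 0.13, adjusted p = 5.55e-05). Its relative Ifit3 had 3.48, 3.97 and 2.96 CPM in chow and 13.2, 10.7 and 18.1 CPM in high-fat livers (log2 2.01 ± 0.21, adjusted p = 0.000373). For both genes the lowest high-fat library stood more than 2-fold above the highest chow library. Ifit2 rose 1.94-fold (log2 0.96 ± 0.21, adjusted p = 0.00918).

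Of the 10 other effectors, 9 rose and 1 did not pass. Ifi44, whose product is linked to reduced cell growth, stood at 1.08, 0.80 and 0.91 CPM in chow and at 3.50, 3.92 and 4.34 CPM in high-fat livers (log2 2.03 ± 0.20, adjusted p = 0.000284). Its levels did not overlap between the diets. The neighbours Rsad2 and Cmpk2, encoding viperin and the mitochondrial kinase that makes the substrate of viperin, rose 2.30-fold and 2.77-fold (adjusted p = 0.000797 and 0.000572). The dynamin-like GTPases Mx1 and Mx2, which trap viral components, rose 2.03-fold and 2.59-fold (adjusted p = 0.0123 and 0.00487). Rtp4, known to restrain the interferon response, rose 2.45-fold (log2 1.29 ± 0.16, adjusted p = 0.000767). Smaller rises were those of Ifi35 (log2 0.996 ± 0.13), Xaf1, a promoter of apoptosis (log2 0.90 ± 0.22), and Bst2, tetherin, which holds budding virus at the cell surface (log2 0.75 ± 0.12), with adjusted p from 0.000811 to 0.0141. Eif2ak2, which encodes the RNA-activated kinase PKR, had 21.3, 21.3 and 19.9 CPM in chow and 21.7, 28.1 and 27.9 CPM in high-fat livers and did not pass (log2 0.32, 95% interval 0.06 to 0.57, adjusted p = 0.0589), although it passed without high-fat replicate 1 (adjusted p = 0.00548). In the authors' deposited table of differential mRNA, 31 members were higher and 1 was lower at an adjusted p under 0.05, and the additional genes there were Eif2ak2 and Parp9.

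These counts depended on 1 alternative. With the mean log2 CPM of exocrine pancreas genes as a further term in the fit, 13 of the 30 calls were kept, all of them rises. The log2 fold change was still above 0 for 32 members and the median was 1.17. Over all genes, 407 rose and 435 fell in that fit, against 2319 and 2271 without the term. The summed level of these pancreas genes does not overlap between the diets. Leaving out each library in turn left 28 to 30 members raised.

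Promoter H3K27ac passed the test at few members. It rose at 2 of the 33 promoters and fell at none (edgeR, adjusted over 20891 promoters), and no member had an unadjusted p under 0.05 in the lower direction. Of all promoters, 0.187% rose and 0.0479% fell. The direction was nevertheless mostly upward: 29 members had a log2 fold change above 0 (49.4% of all promoters), 14 had an unadjusted p under 0.05 in the higher direction (8.28%), and 9 had all high-fat libraries above all chow libraries (9.77%). Members had a median of 0.18 on the log2 scale, and all promoters of -0.003.

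**Figure D2:**
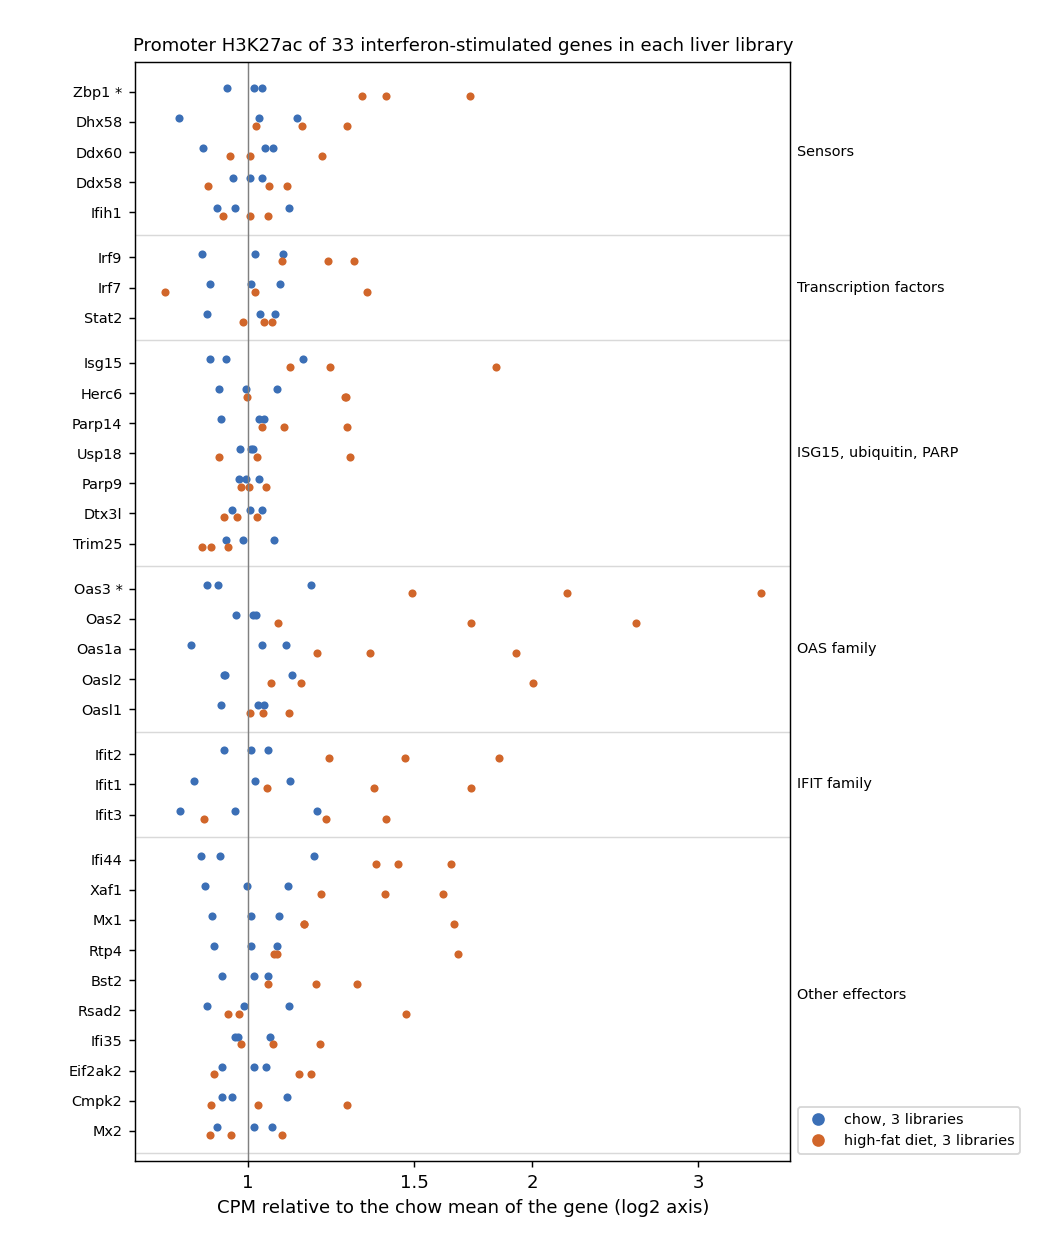
Promoter H3K27ac (CPM) of each gene in each library, divided by the chow mean of the gene, on a log2 axis, with blue points for the 3 chow and orange points for the 3 high-fat libraries. An asterisk marks the promoters with an adjusted p under 0.05, Oas3 and Zbp1; for most other genes the diets overlap, and high-fat replicate 1 is the highest high-fat library for 25 of 33.

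Oas3 had the largest rise in promoter acetylation. Its promoter had 19.9, 24.9 and 19.3 CPM in chow and 74.7, 31.9 and 46.5 CPM in high-fat livers, a 2.34-fold rise (log2 1.22 ± 0.21, adjusted p = 0.0123). The high-fat libraries all lay above the chow range but differed among themselves by more than 2-fold. Zbp1 had 74.1, 79.1 and 80.7 CPM in chow and 134, 103 and 109 CPM in high-fat livers (log2 0.55 ± 0.10, adjusted p = 0.0123). Both calls were lost when chow replicate 1, 2 or 3 or high-fat replicate 3 was left out. With DESeq2 the call of Oas3 was lost as well, while that of Zbp1 was kept. When high-fat replicate 2 was left out, 5 members passed. Over all promoters, 537 rose and 199 fell without high-fat replicate 2, against 39 and 10 with all libraries, so the gain was not particular to the members. In the authors' deposited promoter table, Zbp1 was the 1 member that passed, and the adjusted p of Oas3 was listed as missing there.

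By p-value the promoter of Xaf1 was next, with 67.8, 83.0 and 74.9 CPM in chow and 121, 89.8 and 105 CPM in high-fat livers, and did not pass (log2 0.48 ± 0.10, adjusted p = 0.051), although it passed under 5 of 11 alternatives, among them leaving out high-fat replicate 1 or 2 (adjusted p from 0.00159 to 0.30 over the alternatives). Within the OAS family, the promoter of Oas2, the neighbour of Oas3 on the chromosome, had 19.9, 18.9 and 19.7 CPM in chow and 50.3, 21.0 and 33.6 CPM in high-fat livers (log2 0.77 ± 0.22, adjusted p = 0.112). The diets did not overlap there, but high-fat replicate 2 lay close to chow, and Oas2 passed without it (adjusted p = 0.00125). Oas1a (log2 0.54 ± 0.21) and Oasl2 (log2 0.44 ± 0.17) did not pass, although Oasl2 passed without high-fat replicate 2 (adjusted p = 0.035), and Oasl1 had a log2 fold change of 0.06 with a 95% interval of -0.12 to 0.25.

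Other members with raised mRNA had promoters that did not pass. Usp18 had 64.7, 64.5 and 62.8 CPM in chow and 82.1, 65.3 and 59.7 CPM in high-fat livers, and high-fat replicate 1 alone stood well above chow (log2 0.08, 95% interval -0.14 to 0.29). Irf7 had 72.5, 77.8 and 65.5 CPM in chow and 96.1, 58.7 and 73.1 CPM in high-fat livers (log2 0.05, 95% interval -0.20 to 0.30). Here the high-fat libraries lay on both sides of the chow range. For Ifih1 the log2 fold change was -0.008 with a 95% interval of -0.21 to 0.19, below the log2 fold change of 1.04 of its mRNA. The interval is that of promoter counts, from which background reads were not subtracted. Isg15 had 42.5, 44.3 and 53.4 CPM in chow and 85.6, 57.1 and 51.8 CPM in high-fat livers (log2 0.41 ± 0.14, adjusted p = 0.197), and the diets overlapped. The promoter of Trim25, whose mRNA fell, had a log2 fold change of -0.11 (95% interval -0.30 to 0.08, adjusted p = 0.621). The counts of Parp9 and Dtx3l, neighbours on the chromosome, were within 90.4% and 97.1% of each other in every library, so these promoters may be counted over shared sequence.

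High-fat replicate 1, which had the fewest promoter counts, was the highest of the high-fat libraries at 25 of 33 member promoters. Without it, 3 members passed, Oas3 and Zbp1 among them, the median log2 fold change was 0.09 in place of 0.18, and 25 members were above 0. Over all promoters, 73 rose and 22 fell without that library. Promoters of markers of other cells were read in the same libraries. Their median log2 fold change was 0.51 for macrophage markers (14 of 15 above 0, 1 passed). It was also 0.51 for T and NK cell markers (11 of 11 above 0, none passed, and 5 had an unadjusted p under 0.05). Neutrophil markers had 0.63 (4 of 6 above 0), B cell markers 0.43 (5 of 5) and plasmacytoid dendritic cell markers 0.28 (7 of 8). Exocrine pancreas markers, whose mRNA fell, had 0.16 (18 of 24) and cholangiocyte markers 0.15 (4 of 6). The median was -0.03 for endothelial markers (2 of 7 above 0), -0.08 for stellate cell markers (3 of 7) and -0.23 for hepatocyte markers (1 of 10). The part of these cells in the promoter result was not tested.

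The mRNA change and the promoter change were then compared directly, as an assay by diet interaction in 1 edgeR fit over 12791 symbols. The fit treated the mRNA and H3K27ac libraries as independent. The labels do not say whether libraries of equal number in the assays share a liver, and such sharing was not modelled. The mRNA log2 fold change was larger than that of the promoter for 21 of 33 members (14.6% of all symbols) and smaller for 1, Trim25 (8.58% of all symbols). For the other 11 the difference did not pass. All 21 members with the larger mRNA change were among those with raised mRNA. Over all genes 18% rose in mRNA, while 0.187% of all promoters rose, so this call largely follows the mRNA call. Background reads at promoters were not subtracted, so equal log2 changes in the assays need not mean changes of equal size. The median difference was 0.96 over the members and 0.06 over all symbols. Among the 29 members with raised mRNA, the median log2 fold change was 1.30 for mRNA and 0.23 for the promoter, 26 promoters were above 0, and 4 reached at least 0.5 of the mRNA value on the log2 scale.

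**Figure D3:**
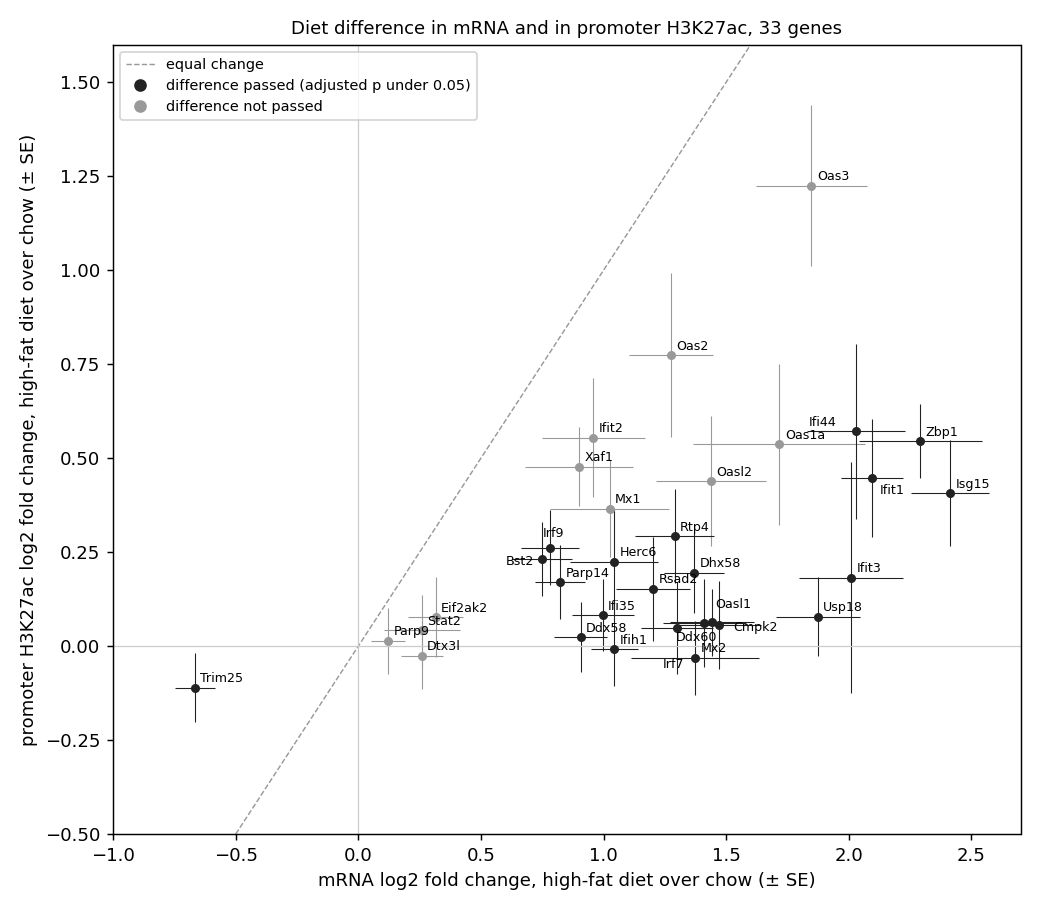
Log2 fold change of mRNA (horizontal) against log2 fold change of promoter H3K27ac (vertical), high-fat diet over chow, for the 33 genes, with bars of 1 SE and a dashed line of equal change. Black points, 22 in all, are genes whose difference passed; all points but Trim25 lie below the line, and Oas3 stands apart at 1.85 for mRNA and 1.22 for the promoter.

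The largest differences were those of Isg15 (1.97 ± 0.26 on the log2 scale, adjusted p = 0.000134), Ifit3 (1.82 ± 0.38, adjusted p = 0.00336), Usp18 (1.77 ± 0.21, adjusted p = 6.26e-05), Zbp1 (1.74 ± 0.24, adjusted p = 0.000205) and Ifit1 (1.64 ± 0.23, adjusted p = 0.000221). Zbp1 thus rose in both assays, by more in mRNA. The promoter of Ifit3 held few reads, with 27, 12 and 22 counts in chow and 15, 18 and 23 in high-fat livers. Its promoter log2 fold change was 0.18, with an interval of -0.45 to 0.82. How far its acetylation changed is therefore uncertain, and background reads were not subtracted. Ifi44, Cmpk2, Mx2, Oasl1, Ddx60, Irf7, Dhx58, Ifih1, Rsad2, Rtp4, Ifi35, Ddx58, Herc6, Parp14, Irf9 and Bst2 also passed, with differences from 1.45 down to 0.52. For the difference, leaving out a replicate removed the mRNA and the promoter library of that diet and number together. This ended the call of Bst2 (chow replicate 1, 2 or 3 or high-fat replicate 3) and Herc6 (chow replicate 1 or 2 or high-fat replicate 2). It also ended those of Irf9 and Rtp4 (chow replicate 2 or 3 or high-fat replicate 2), with adjusted p up to 0.166 over these genes. For Trim25 the difference was -0.55 ± 0.12 (adjusted p = 0.00379).

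In the OAS family the difference passed for Oasl1 alone. For Oas3 it was 0.59 (95% interval -0.25 to 1.43, adjusted p = 0.302) and for Oas2 it was 0.47 (95% interval -0.28 to 1.22, adjusted p = 0.36). These intervals hold both no difference and differences of more than 1 on the log2 scale, so the assays were not shown to change alike. High-fat replicate 1 was the highest library at both promoters. Without the mRNA and promoter libraries of that number, the difference of Oas3 was 1.01 (adjusted p = 0.0344), and those of Oas1a, Oasl2 and Mx1 passed as well. Across the 33 members, Pearson's r between the log2 fold changes of mRNA and promoter was 0.50 and Spearman's rho 0.45, and across all 12791 symbols they were 0.21 and 0.24. These describe the spread across genes, which share libraries and are not independent.

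Other genes of the interferon pathway were read from lists that exclude the members and were also chosen with earlier results of these data known. The interferons themselves were not measurable: none of 19 ligand genes passed the filter on low counts, 15 had 0 counts in all 6 libraries, and the others summed to 13 counts in chow and 2 in high-fat livers. A count of 0 in each library limits only what could be seen in whole liver at this depth. None of the 5 receptor genes tested passed (edgeR; 0 at an unadjusted p under 0.05). Ifnar1 had 47.5, 50.1 and 49.3 CPM in chow and 52.5, 47.4 and 43.7 CPM in high-fat livers, and Ifnar2 had 67.3, 65.7 and 64.4 against 66.2, 56.3 and 58.2 CPM. Both encode chains of the type I interferon receptor, and their diets overlapped.

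Among genes of Janus kinase and STAT signalling and its brakes, Tyk2, a kinase bound to the type I receptor, rose 1.37-fold (log2 0.45 ± 0.09, adjusted p = 0.00722). Pias1, which inhibits STAT signalling, fell (log2 -0.36 ± 0.09, adjusted p = 0.0163), a call lost without chow replicate 3 or high-fat replicate 2 and with the exocrine pancreas term (adjusted p up to 0.0993). The call of Tyk2 was lost with that term alone (adjusted p = 0.177). Among 23 tested genes of sensing and interferon induction, 9 rose, 2 fell and 12 did not pass, beside 18% of all genes that rose and 17.6% that fell. Ikbke, a kinase that activates IRF3 and IRF7, rose from 10.2, 9.60 and 11 CPM to 31.6, 19.7 and 22.0 CPM (log2 1.25 ± 0.17, adjusted p = 0.00127), and its call was lost with the exocrine pancreas term (adjusted p = 0.126). Samhd1, which degrades nucleotides, rose 1.99-fold and Irf2 1.80-fold. Irf1 rose 1.24-fold (adjusted p = 0.0276), but its call was lost without chow replicate 1, 2 or 3 or high-fat replicate 2, with DESeq2 and with the exocrine pancreas term (adjusted p up to 0.147). Irf3, the factor that starts interferon transcription, had a log2 fold change of -0.04 ± 0.10 and did not pass (adjusted p = 0.773). The median over these genes was 0.43 on the log2 scale.

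**Figure D4:**
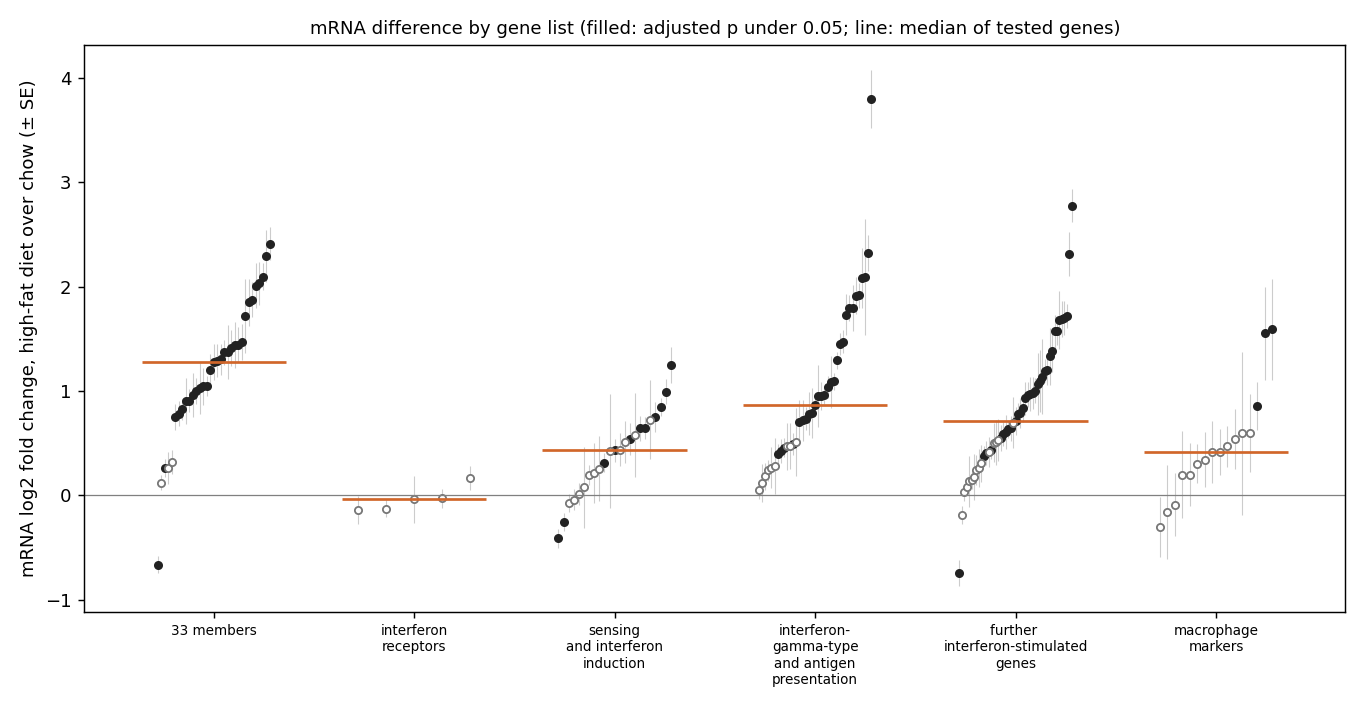
mRNA log2 fold change, high-fat diet over chow, with bars of 1 SE, for the tested genes of 6 gene lists, sorted within each list, with filled points for genes with an adjusted p under 0.05 and an orange line at the median of each list. The median is 1.28 for the 33 members, near 0 for the receptors and 0.41 for the macrophage markers.

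Genes of the type induced by interferon gamma and genes of antigen presentation rose widely: 28 of 37 tested passed as higher, none as lower, and the median log2 fold change was 0.86. Over all genes, 18% rose and 17.6% fell. The guanylate-binding protein Gbp10, one of a family of GTPases that attack membranes around pathogens, stood at 0.61, 1.34 and 1.24 CPM in chow and at 11.8, 13.2 and 16.1 CPM in high-fat livers (log2 3.80 ± 0.27, adjusted p = 9.54e-05). Gbp6 rose 5.0-fold (log2 2.32 ± 0.17, adjusted p = 9.54e-05), and Gbp11 had 2.19, 1.56 and 1.29 CPM in chow and 13.9, 5.96 and 2.55 CPM in high-fat livers (log2 2.09 ± 0.55, adjusted p = 0.0198). High-fat replicate 1 was the highest library for Gbp11, whose call was lost without chow replicate 2 or 3 and with the exocrine pancreas term. The Gbp genes are a family of near copies, so counts can be split among them. Of 47 further interferon-stimulated genes tested, 32 rose, 1 fell and 14 did not pass, with a median of 0.71. Apol9a, an apolipoprotein L relative, had 7.61, 5.26 and 6.29 CPM in chow and 51.9, 40.7 and 40.8 CPM in high-fat livers (log2 2.78 ± 0.16, adjusted p = 4.28e-05). Slfn9 rose 4.97-fold and Ly6e 3.29-fold (adjusted p = 0.000205 and 8.68e-05).

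Markers of other cells were read in the same mRNA libraries. Of 16 macrophage markers 3 rose, a share near the 18% of all genes, and 13 were above 0, with a median log2 fold change of 0.41. Those that rose were Cd68 (log2 0.86 ± 0.23), Ccr2 (log2 1.55 ± 0.45) and Cx3cr1 (log2 1.59 ± 0.48). The last 2 were low and highest in high-fat replicate 3. Ccr2 had 1.15, 0.54 and 0.91 CPM in chow and 1.68, 1.84 and 4.52 CPM in high-fat livers, and Cx3cr1 0.72, 0.48 and 0.38 against 0.98, 1.18 and 2.95 CPM. Vsig4 (log2 -0.31), Itgam (-0.16) and Cd14 (-0.09) lay below 0 and did not pass. Clec4f, which marks resident Kupffer cells, had 56.0, 64.9 and 91.1 CPM in chow and 72.8, 102 and 86.2 CPM in high-fat livers and did not pass (adjusted p = 0.238). Markers of plasmacytoid dendritic cells, strong producers of interferon, summed to 24.7 to 36.4 CPM in chow and 16.1 to 32.1 CPM in high-fat livers. Of the 6 tested, Klk1, a kallikrein also made in exocrine glands, fell (log2 -4.80 ± 0.86) and the other 5 did not pass. T and NK cell markers were low and summed to 3.22 to 3.66 CPM in chow and 4.20 to 5.10 CPM in high-fat livers, without overlap, and none of the 3 tested passed. B cell markers (1.5 to 4.18 against 2.55 to 3.17 CPM) and neutrophil markers (4.47 to 9.41 against 6.76 to 8.55 CPM) overlapped between the diets. No marker list had a gene at 0 in all libraries, and the part of these cells in the mRNA result was not tested.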

How the data were processed

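Livers were sequenced for mRNA and for H3K27ac by chromatin immunoprecipitation, 3 libraries per diet and assay, grouped by the sample titles. Per the submitters' processing notes, the authors used TopHat 1.4.0, HTSeq, DESeq2 1.0.18 and bedtools for mRNA and Bowtie 0.12.7, MACS 1.4.0rc2, bedtools and DESeq2 for the chromatin data, on the mouse build mm9. Which tool made which file, whether counting used strand and how wide a promoter is are not given in the sources used here. The deposited files hold raw counts per gene and per gene promoter. Per the file headers, the authors' tables of differential results hold the mean signal, log2 fold changes with their standard errors, and p-values, and whether these fold changes were shrunken is not stated. Files of peaks, of H3K4me1, H3K4me3 and IgG, and the authors' normalized mRNA values were not used here.

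Each count table was fitted whole with edgeR 4.0.16 (R 4.3.3): filterByExpr by diet, TMM factors, the two-sided quasi-likelihood F test with diet as the only term, and Benjamini-Hochberg adjustment over all features of the table, threshold 0.05. Only features past it are said to rise or fall. SE is that of the log2 fold change, intervals are 95%, and levels are TMM-scaled CPM, with SD over 3 libraries. The mRNA and promoter changes were compared as the assay by diet term of 1 joint fit. An exact permutation test of 3 against 3 libraries has 0.1 as its smallest p and was not used. In data simulated at these depths with 200 features changed by a log2 value of 1, 92% were recovered for mRNA (12801 genes), 87.5% for promoters (20732) and 89.5% for the difference (12672), with 6.6%, 6.42% and 7.73% false calls. The changed features were drawn only from those above a cut on mean level, and smaller changes were not simulated. These rates therefore do not carry over to features with low counts or to changes below a log2 value of 1, as at most member promoters. Reads carry no molecular identifiers.

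The members and lists were chosen with earlier results of these data known. Members were given with values where mRNA rose at least 2-fold, where they went against the rest, or where the promoter or difference fit passed, and from each other list the 3 largest folds past the threshold, plus Ifnar1, Ifnar2, Irf3 and Irf1. A further gene of this rule, with the counts of its list, is not reported here. Other genes named in the text were chosen after their values were seen. Alternatives were other scaling (RLE, total counts), no count filter, each library left out, the replicate number as a block, DESeq2 1.42.0, limma 3.58.1 (voom with assay weights), and exocrine pancreas genes left out or as a term. For the difference, the libraries of a diet and number were left out in both assays together.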

Additional observations from a re-analysis of the deposited data

How the results depend on the processing

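Leaving out each library in turn left 28 to 30 members raised in mRNA and 1 lowered, with 1489 to 2580 genes raised and 1410 to 2583 lowered among all. For promoters it left 0 to 5 members raised, with 0 to 537 raised and 0 to 199 lowered among all promoters. For the difference, the mRNA and promoter libraries of 1 diet and number were left out together. This left 17 to 25 members with a larger mRNA change, with 1004 to 1954 symbols larger and 588 to 1344 smaller among all. With the exocrine pancreas level as a term, 13 members were raised and 0 lowered, and 407 genes were raised and 435 lowered. DESeq2 raised 1 member promoter, that of Zbp1, and not that of Oas3. Fits with the replicate number as a block raised 4 member promoters, and 315 promoters in all with 155 lowered, and changed no other count of calls by over 1.5 times. Between diets, the deviations of libraries of equal number correlated at 0.04, -0.04 and 0.14 for mRNA and 0.09, -0.01 and 0.04 for promoters. In each assay 1 of 3 matched best with its own number. With 3 libraries per diet this cannot decide whether equal numbers were paired. Scaling by total counts moved the median of all genes from 0.02 to 0.10, which turned the mRNA value of Ifnar1 to 0.0415 and of Irf3 to 0.0297, and the promoter value of Ifih1 to 0.0177 and of Dtx3l to 0.00181. None of these 4 values had passed, and 29 members were raised under that scaling too. The cause of these changes was not tested.

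Without 1 library the log2 fold change changed sign for some genes that had not passed. In mRNA it ran from -0.105 to 0.0308 for Ifnar1 and from -0.144 to 0.0315 for Irf3. At promoters it ran from -0.0318 to 0.0985 for Stat2, -0.0496 to 0.109 for Ddx58, -0.0146 to 0.0361 for Parp9, -0.111 to 0.215 for Irf7, -0.0966 to 0.0243 for Mx2, -0.0480 to 0.0786 for Ifih1, -0.0589 to 0.00308 for Dtx3l, -0.0241 to 0.124 for Ddx60, -0.0277 to 0.261 for Rsad2, -0.0320 to 0.176 for Usp18 and -0.0579 to 0.162 for Cmpk2. Of 1363 single-gene values under alternatives, 1261 kept direction and side of the threshold, 62 lost and 17 gained a call, and 23 changed sign, none of them called. The smallest promoter library held 1967613 counts. Peaks were not assigned to members because no annotation of the build of the files was used, and the promoter table holds 1 row per symbol, so the alternatives on peaks and on a choice of rows were not run.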

Other observations

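Beyond the interferon list, H3K27ac rose at 39 of 20891 promoters and fell at 10 (edgeR, 0.187% and 0.0479%). Several of the raised promoters, chosen here after their values were seen, belong to genes known from white blood cells. H2-Aa, a class II antigen-presentation chain, had 20.8, 20.6 and 17.2 CPM in chow and 65.7, 24.2 and 41.7 CPM in high-fat livers (log2 1.11 ± 0.23 (SE), adjusted p = 0.0401), while its mRNA did not pass (log2 0.47 ± 0.22, adjusted p = 0.128). The high-fat libraries of H2-Aa stood in the same order as those of Oas3, with replicate 1 highest and replicate 2 lowest. Promoters of Sfpi1, which encodes the myeloid factor PU.1 (log2 0.82 ± 0.18, adjusted p = 0.0409), Cd68 (log2 0.51 ± 0.11, adjusted p = 0.0427), Cd52 (log2 0.88 ± 0.18, adjusted p = 0.0326) and Il10ra (log2 0.54 ± 0.11, adjusted p = 0.0381) also rose. The mRNA of Sfpi1 rose (log2 0.97, adjusted p = 0.0136), as did that of Cd68, whereas Cd52 (adjusted p = 0.0535) and Il10ra (adjusted p = 0.508) did not pass.

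Other markers read in the same libraries gave these counts. In mRNA, 2 of 7 stellate cell markers rose and 1 fell, 1 of 10 hepatocyte markers rose and 2 fell, and none of 7 endothelial and 5 cholangiocyte markers passed (edgeR; 1 of each at an unadjusted p under 0.05). Over all genes, 18% rose and 17.6% fell, and 6020 of 12909 had an unadjusted p under 0.05. At promoters, none of the 7 stellate, 7 endothelial, 6 cholangiocyte, 10 hepatocyte, 8 plasmacytoid dendritic, 5 B cell, 6 neutrophil and 24 exocrine pancreas markers tested passed, with 1, 2, 3, 2, 3, 3, 3 and 3 of them at an unadjusted p under 0.05. Of all 20891 promoters tested, 2924 had such a p. At the promoters of interferon pathway genes, H2-Aa was the 1 of 144 tested that passed.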
